A study of Mus musculus with 21 samples.

Results

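The genes described here are 10 genes of connective tissue stroma: the collagen chain genes Col1a1, Col1a2, Col3a1, Col5a1 and Col6a1, the microfibril gene Fbn1, the proteoglycan genes Lum and Dcn, the matricellular gene Sparc, and the chemokine gene Cxcl12. They were chosen by their symbols, and all 10 were found among the 24421 symbols of the deposited count and FPKM tables (FPKM, fragments per kilobase of transcript, scaled to library size). Poly(A) RNA of primary murine B cell precursors was sequenced in 3 conditions with 2 libraries each. EV cells carried the empty retroviral vector MIGR1, BCR-ABL1 cells carried MIGR1 encoding human BCR-ABL1p210, the fusion kinase of chronic myeloid and some lymphoid leukemias, and C-MYC cells carried MIGR1 encoding the mouse transcription factor C-MYC. All 6 libraries came from C57BL/6 bone marrow that lacked the DNA repair factor 53BP1 (53BP1-/-), grown with 10 ng/ml of the pre-B cell growth factor IL-7 and collected 7 to 9 days after transduction. The cultures began as whole bone marrow without erythrocytes, and growth with IL-7 enriched the B cell precursors. Neither the labels nor the methods give a sort on a B lineage marker before RNA was extracted, and the labels do not say which animals each culture came from, so a p-value here measures the spread between these libraries only.

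Collagen fibrils are built from triple helices of collagen chains. Col1a1 and Col1a2 encode the chains of type I collagen, Col3a1 the chain of type III, Col5a1 a chain of type V, which sets fibril diameter, and Col6a1 a chain of the beaded filaments of type VI. Lumican (Lum) and decorin (Dcn) are small leucine-rich proteoglycans that bind fibrils, fibrillin-1 (Fbn1) forms the microfibrils of elastic tissue, and SPARC is a secreted calcium-binding glycoprotein that binds collagen. Mesenchymal cells, such as fibroblasts, osteoblasts and marrow stromal cells, are a textbook source of all of them, though not the only source of each. B lineage cells are not a textbook source. Stromal cells of the marrow also secrete CXCL12, which holds B cell precursors in their niche through the receptor CXCR4 on the precursors.

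In GRCm38, the build of the deposited tables, the GENCODE M21 annotation placed Col1a1 at chromosome 11, 94936224 to 94953042, and Sparc on the same chromosome at 55394500 to 55423183. Col1a2 (4504814 to 4541544) and Cxcl12 (117168535 to 117181367) lie on chromosome 6, Col5a1 (27886425 to 28039514) and Fbn1 (125300594 to 125507993) on chromosome 2, and Col3a1 (45311538 to 45349706) on chromosome 1. Chromosome 10 holds Col6a1 (76708792 to 76726168), Dcn (97479609 to 97518143) and Lum (97565128 to 97572703). Dcn and Lum are neighbours separated by 46985 bp, Col3a1 is 24615 bp from Col5a2, and Col6a1 is 85162 bp from Col6a2. The values are sums over whole genes, so they do not separate exons or isoforms. Fbn1 and Col5a1 overlap annotated genes on the opposite strand, and without a stated strand setting reads of such partners cannot be told apart.

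RefSeq promoter sequence of GRCm38.p6 was at hand for 7 of the 10 genes, all but Col1a1, Dcn and Lum. The start used here is RefSeq's gene start, whereas the GENCODE spans given above cover all transcripts, some of which begin farther upstream. In 4 of the 7 genes (Col1a2, Col6a1, Fbn1 and Sparc) the 120 bases before the RefSeq start overlapped an exon of such a transcript. The windows of the other 3 genes held no annotated exon of their gene and are printed 5′ to 3′. They belong to a fibrillar chain of low level (Col3a1), to Col5a1 and to the chemokine (Cxcl12). Col5a1 had the third highest FPKM in EV among the collagen chains of the 10 genes. The windows are the forward strand of chr1:45311418-45311537, chr2:27886305-27886424 and chr6:117168415-117168534. Capitals mark matches on either strand to TATAAA, the letters of a TATA box, or to GGGCGG, those of a GC box. The TATAAA of Col3a1 began 117 bases before the start, and its use as a TATA box was not tested.
Col3a1: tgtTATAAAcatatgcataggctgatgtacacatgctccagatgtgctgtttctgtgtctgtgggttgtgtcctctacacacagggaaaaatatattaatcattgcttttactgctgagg
Col5a1: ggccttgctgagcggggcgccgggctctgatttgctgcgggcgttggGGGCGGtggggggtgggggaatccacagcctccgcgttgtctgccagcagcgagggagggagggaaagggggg
Cxcl12: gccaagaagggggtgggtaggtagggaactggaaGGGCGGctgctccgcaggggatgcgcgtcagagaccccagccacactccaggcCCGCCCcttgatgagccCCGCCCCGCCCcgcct
Over the 250 bases before the start, CCAAT was found in Col1a2 alone of the 7 (33.8% of all 32851 promoters held it), TATAAA in Col3a1 alone (12.4% of all) and GGGCGG in Col1a2, Col5a1, Fbn1 and Cxcl12 (32.7% of all). Col6a1 and Sparc held none of these letters. The 7 genes thus shared no motif among the 3 searched.

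The 6 libraries held 20687092 to 24095955 counts each, and 12786 genes passed the filter on low counts and were tested with edgeR's quasi-likelihood test. EV, BCR-ABL1 and C-MYC libraries all held high counts of B cell precursor genes, for example 13425 to 34868 counts of Cd79a, which encodes a signalling chain of the B cell receptor. EV replicates differed more from each other than the replicates of the other conditions: the central 90% of well counted genes had replicate ratios of 0.576 to 1.75 with EV, 0.757 to 1.33 with BCR-ABL1 and 0.733 to 1.49 with C-MYC.

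The collagen and Sparc genes were measured at far higher counts in EV than in either oncogene condition. The 10 genes together had 2957 and 4940 counts with EV, 177 and 230 with BCR-ABL1 and 58 and 69 with C-MYC. As shares of all counts these were 0.0143% (95% Wilson interval 0.0138 to 0.0148%) and 0.0218% (0.0212 to 0.0224%) with EV, 0.000831% (0.000717 to 0.000962%) and 0.000955% (0.000839 to 0.00109%) with BCR-ABL1 and 0.000252% (0.000195 to 0.000325%) and 0.000304% (0.00024 to 0.000384%) with C-MYC. The 3 conditions did not overlap, with EV highest and C-MYC lowest. Intervals and limits of this kind cover counting error only. In such bulk samples, fewer cells of a type and less RNA per cell cannot be told apart.

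**Figure D1:**
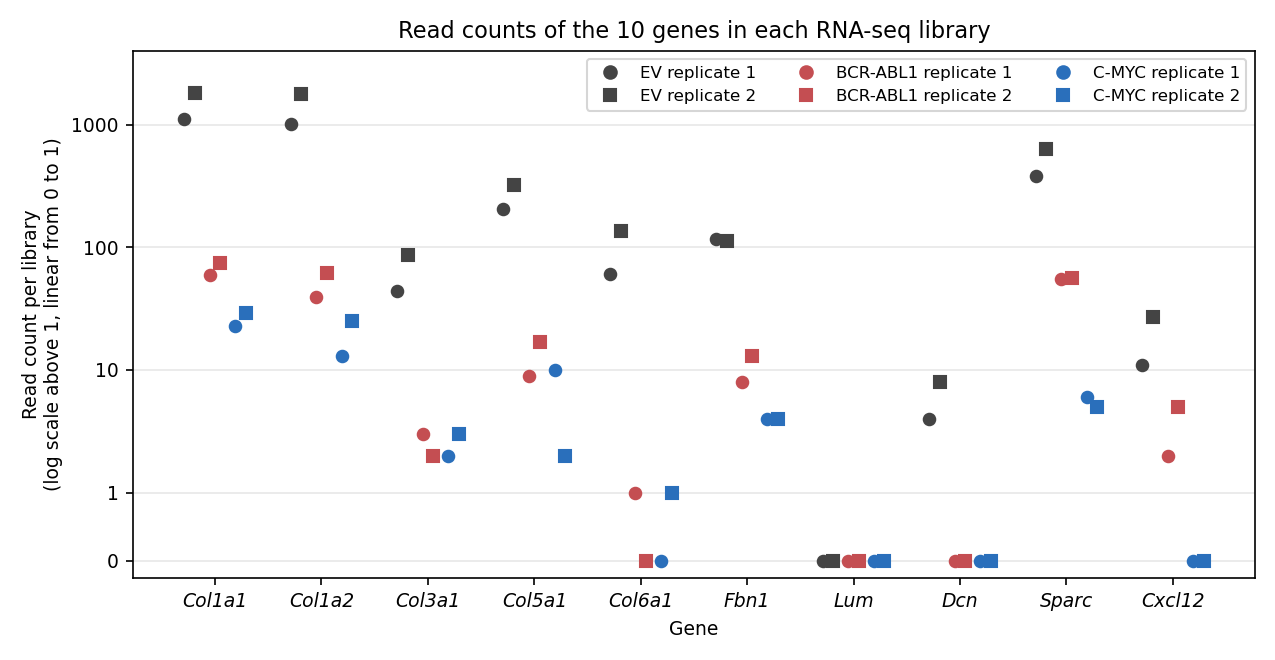
Read counts per library (vertical axis, log scale above 1 and linear from 0 to 1) of the 10 genes; circles are replicate 1 and squares replicate 2 of EV (grey), BCR-ABL1 (red) and C-MYC (blue). Col1a1, Col1a2 and Sparc, which reached the filter minimum outside EV too, had more counts in both EV libraries than in any other library. Sparc separated BCR-ABL1 (55 and 56 counts) from C-MYC (6 and 5).

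Of the 10 genes, 8 were tested. Lum had 0 counts in all 6 libraries, which allows a level of up to 0.125 to 0.142 counts per 1000000 counts (CPM, scaled by edgeR) in a library. Dcn had 4 and 8 counts in EV and 0 in each of the other libraries. Both fell under the filter, which asked for 0.44 CPM in at least 2 libraries. Col3a1, Col5a1, Col6a1, Fbn1 and Cxcl12 passed the filter through the EV libraries and would not have passed without them, so a lower level outside EV was built into their selection, and their number is no support for a direction. Col1a1, Col1a2 and Sparc reached the minimum in BCR-ABL1 as well, and Col1a1 and Col1a2 also in C-MYC.

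Levels were compared between genes per length. In EV, the deposited FPKM were highest for Col1a2 (14.7 ± 4.9, SD, n = 2) and Col1a1 (12.4 ± 3.51), followed by Sparc (4.74 ± 1.41), Col5a1 (1.72 ± 0.45) and Col6a1 (1.16 ± 0.567). Cxcl12 (0.683 ± 0.354 FPKM), Fbn1 (0.482 ± 0.0392) and Col3a1 (0.434 ± 0.167) overlapped in their spread, as did Col1a2 with Col1a1. Dcn was at 0.0634 ± 0.0249 FPKM, and Lum was listed at 0. The type I chains ranked above 69.2% (Col1a2) and 66.3% (Col1a1) of the 16956 genes with FPKM above 0 in EV, Sparc was near the middle (51.7%) and the others were below the median of 4.2 FPKM. On CPM per kilobase of annotated exon the order differed at the top, with Col1a1 at 9.76 ± 2.59, Sparc at 5.87 ± 1.64 and Col1a2 at 4.93 ± 1.55, since the exon length of Col1a2 over all transcripts (12426 bp) is larger than that of Col1a1 (6563 bp). The order of type I chains is therefore not settled by these tables. Cxcl12 also moved, to 0.1 ± 0.0531 CPM per kilobase against 0.416 ± 0.0432 for Fbn1 and 0.288 ± 0.111 for Col3a1, so its overlap with Fbn1 holds on FPKM alone.

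In BCR-ABL1 the FPKM of Col1a1 (0.547 ± 0.0353), Col1a2 (0.505 ± 0.123) and Sparc (0.495 ± 0.0295) overlapped, and these genes ranked above 32.2%, 31.6% and 31.4% of genes with FPKM above 0. In C-MYC Col1a1 (0.211 ± 0.0393 FPKM) and Col1a2 (0.19 ± 0.0864) overlapped and Sparc was lower, at 0.0488 ± 0.00629 FPKM. On CPM per kilobase of annotated exon the 3 genes stood apart in BCR-ABL1, with Sparc at 0.651 ± 0.0523, Col1a1 at 0.454 ± 0.0293 and Col1a2 at 0.178 ± 0.0414. On that scale Sparc (0.066 ± 0.00957) overlapped Col1a2 (0.0692 ± 0.0299) in C-MYC and was below Col1a1 (0.18 ± 0.0264), so its place below both type I chains holds on FPKM alone. The mean of each remaining gene was 0.125 FPKM or lower in both oncogene conditions.

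The comparison of BCR-ABL1 with EV set whole cultures that carried the kinase against whole cultures with the empty vector. Of all 12786 tested genes, 12.0% were lower and 5.08% higher in BCR-ABL1 at an adjusted p below 0.05. Of the 10 genes, 7 fell, Cxcl12 was below EV without passing the test, and Dcn and Lum were not tested. For C-MYC, 24.5% of all genes were lower and 18.6% higher than in EV, and all 8 tested genes fell. Both comparisons use the same EV libraries, so their values are not independent of each other and are given side by side.

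The type I collagen genes fell most in counts. Col1a1 had 1113 and 1821 counts with EV, 60 and 75 with BCR-ABL1 and 23 and 29 with C-MYC. The fitted log2 fold change was -4.42 (SE 0.24, adjusted p = 0.000354) in BCR-ABL1, which is 21.4-fold lower, and -5.76 (SE 0.268, adjusted p = 0.000156) in C-MYC, which is 54.0-fold lower. Col1a2, whose product joins that of Col1a1 in the same helix, had 1019 and 1791 counts with EV, 39 and 62 with BCR-ABL1 and 13 and 25 with C-MYC. It was 27.5-fold lower in BCR-ABL1 (log2 -4.78, SE 0.327, adjusted p = 0.000367) and 70.6-fold lower in C-MYC (log2 -6.14, SE 0.367, adjusted p = 0.000156). No library of either oncogene overlapped EV for these genes.

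Col5a1 had 207 and 323 counts with EV, 9 and 17 with BCR-ABL1 and 10 and 2 with C-MYC. Its log2 fold change was -4.33 (SE 0.485, adjusted p = 0.0015) in BCR-ABL1 and -5.38 (SE 0.537, adjusted p = 0.000436) in C-MYC. The C-MYC libraries lay on both sides of the lower BCR-ABL1 library. Col3a1 had 44 and 86 counts with EV, 3 and 2 with BCR-ABL1 and 2 and 3 with C-MYC, and its adjusted p was 0.0019 and 0.00077. At so few counts the fitted fold depends on the prior count of the fit, and the pooled counts give EV 25.9-fold above BCR-ABL1 (95% counting interval 10.8 to 81.1) and 25.2-fold above C-MYC (10.5 to 79.0).

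Col6a1, of the type VI filaments, had at most 1 count in any library outside EV. It had 61 and 135 counts with EV, 1 and 0 with BCR-ABL1 and 0 and 1 with C-MYC, with an adjusted p of 0.0017 and 0.000664. The pooled ratio of EV was 195-fold over BCR-ABL1 (95% counting interval 34.6 to 7750) and 190-fold over C-MYC (33.8 to 7550). The width of these intervals comes from the single count in each oncogene condition. Its partner chains Col6a2 and Col6a3 had 49 and 72, and 33 and 59, counts in EV, and no more than 3 in any other library.

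Fbn1 was the only one of the 8 tested genes with fewer counts in EV replicate 2 than in EV replicate 1. It had 116 and 112 counts with EV, 8 and 13 with BCR-ABL1 and 4 and 4 with C-MYC. It was 10.8-fold lower in BCR-ABL1 (log2 -3.43, SE 0.352, adjusted p = 0.0011) and 27.0-fold lower in C-MYC (log2 -4.75, SE 0.403, adjusted p = 0.000306). Dcn, with 12 counts in EV in all, was at least 3.98-fold higher in EV than in BCR-ABL1 and at least 3.88-fold higher than in C-MYC, taking 3 counts over the condition as the limit that 0 counts allow. Lum gave no comparison.

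Sparc kept the most counts in BCR-ABL1 relative to EV among the called genes. It had 382 and 637 counts with EV, 55 and 56 with BCR-ABL1 and 6 and 5 with C-MYC. It was 9.01-fold lower in BCR-ABL1 (log2 -3.17, SE 0.267, adjusted p = 0.000653) and 87.1-fold lower in C-MYC (log2 -6.45, SE 0.355, adjusted p = 0.000156). The 3 conditions did not overlap for Sparc.

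Cxcl12 was a low-count gene in every library. It had 11 and 27 counts with EV, 2 and 5 with BCR-ABL1 and 0 and 0 with C-MYC. In BCR-ABL1 the log2 fold change was -2.38 (SE 0.7) and did not pass the test (adjusted p = 0.0633). The pooled counts put EV 5.41-fold higher (95% counting interval 2.39 to 14.3), an interval that leaves out the spread between libraries. Cxcl12 passed the filter through EV alone, so a lower level in BCR-ABL1 was built into its selection. The call turned on the libraries and the model: without EV replicate 1 the log2 fold change was -2.82 with an adjusted p of 0.0322, and with a term for the replicate number the adjusted p was 0.0258, while DESeq2 gave 0.214, and over all alternatives the adjusted p ranged from 0.0258 to 0.319. In C-MYC Cxcl12 fell (adjusted p = 0.00503), and EV was at least 12.3-fold higher, again with 3 counts over the condition as the limit. Transcripts of its receptor were abundant in every library: Cxcr4 had 7659 and 6093 counts with EV, 5145 and 5035 with BCR-ABL1 and 4323 and 3586 with C-MYC. Cxcr4 fell in C-MYC (log2 -0.77, SE 0.182, adjusted p = 0.0117) and had a log2 fold change of -0.44 in BCR-ABL1 (SE 0.182, adjusted p = 0.148). The other CXCL12 receptor, Ackr3, had 0 to 7 counts and was not tested.

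**Figure D2:**
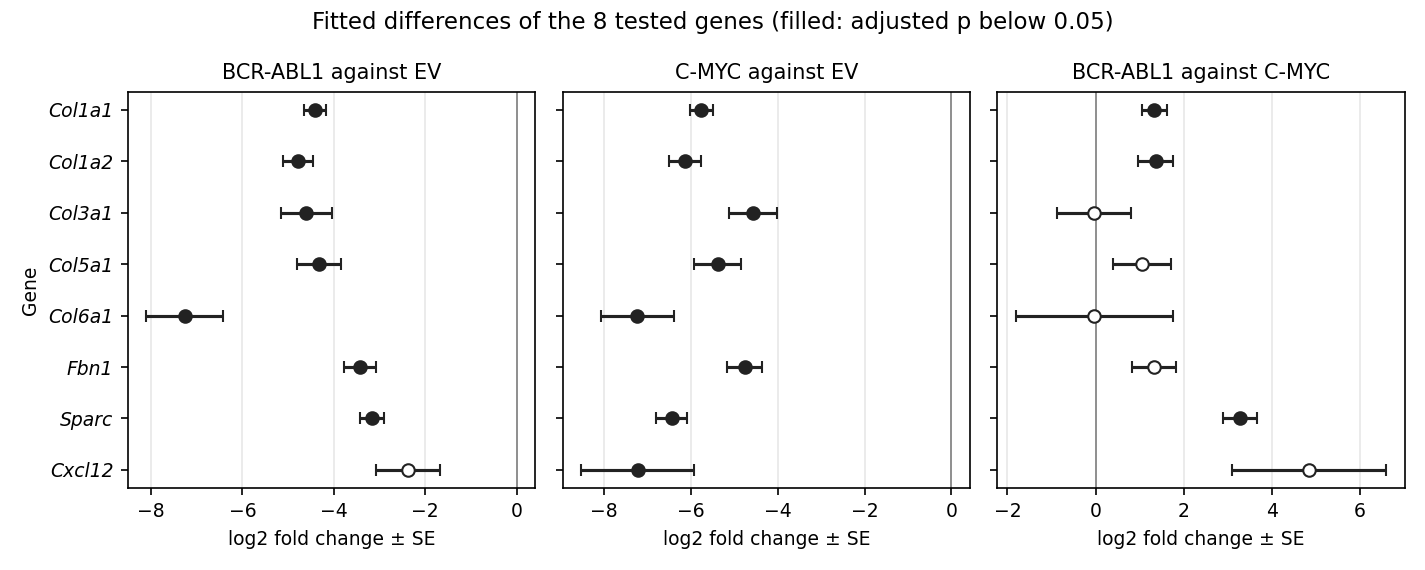
Fitted log2 fold changes with standard errors (horizontal axis) of the 8 tested genes in the 3 comparisons; filled points passed edgeR's quasi-likelihood test at an adjusted p below 0.05. Against EV, only Cxcl12 in BCR-ABL1 is an open point, and between the oncogenes Sparc (3.27), Col1a1 (1.33) and Col1a2 (1.36) are filled; the values of Col3a1 and Col6a1 against either oncogene, and of Cxcl12 against C-MYC, rest on 0 to 5 counts and depend on the prior count of the fit.

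The direct comparison of the oncogenes set BCR-ABL1 cultures against C-MYC cultures. Of all tested genes, 11.9% were higher and 11.5% lower in BCR-ABL1 than in C-MYC. Of the 10 genes, 3 were higher in BCR-ABL1: Sparc by 9.67-fold (log2 3.27, SE 0.384, adjusted p = 0.00184), Col1a1 by 2.52-fold (log2 1.33, SE 0.284, adjusted p = 0.0143) and Col1a2 by 2.57-fold (log2 1.36, SE 0.405, adjusted p = 0.046). Fbn1 (log2 1.32, SE 0.489, adjusted p = 0.0893), Col5a1 (1.05, SE 0.656, adjusted p = 0.285) and Cxcl12 (2 and 5 counts against 0 and 0, adjusted p = 0.0925) had higher means in BCR-ABL1 without passing the test. Col3a1 (log2 -0.03, SE 0.837) and Col6a1 (-0.03, SE 1.78) had standard errors too wide for a difference of a few fold to be detectable at this depth. Leaving out any 1 BCR-ABL1 or C-MYC library ended the calls of Col1a1 (highest adjusted p 0.0928) and Col1a2 (0.224), and Sparc kept its call in each of these fits, with a highest adjusted p of 0.0244. The limma fit of log2(FPKM + 1) called none of the 3, with an adjusted p of 0.104 for Sparc.

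The share of Sparc in the summed counts of the 10 genes was highest in BCR-ABL1. Sparc made up 12.9% (95% Wilson interval 11.8 to 14.2%) and 12.9% (12.0 to 13.9%) with EV, 31.1% (24.7 to 38.2%) and 24.3% (19.3 to 30.3%) with BCR-ABL1 and 10.3% (4.83 to 20.8%) and 7.25% (3.13 to 15.9%) with C-MYC. The BCR-ABL1 shares were above those of every other library, with intervals that did not reach those of EV. Col1a1 made up 37.6% and 36.9% with EV, 33.9% and 32.6% with BCR-ABL1 and 39.7% and 42.0% with C-MYC, and the intervals of all 6 libraries overlapped. Col1a2 made up 34.5% and 36.3% with EV, 22.0% and 27.0% with BCR-ABL1 and 22.4% and 36.2% with C-MYC, so 1 C-MYC library lay near the BCR-ABL1 shares and the other near those of EV. With 2 libraries in each condition, an exact permutation test of a share could not go below p = 0.333, and none was run.

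**Figure D3:**
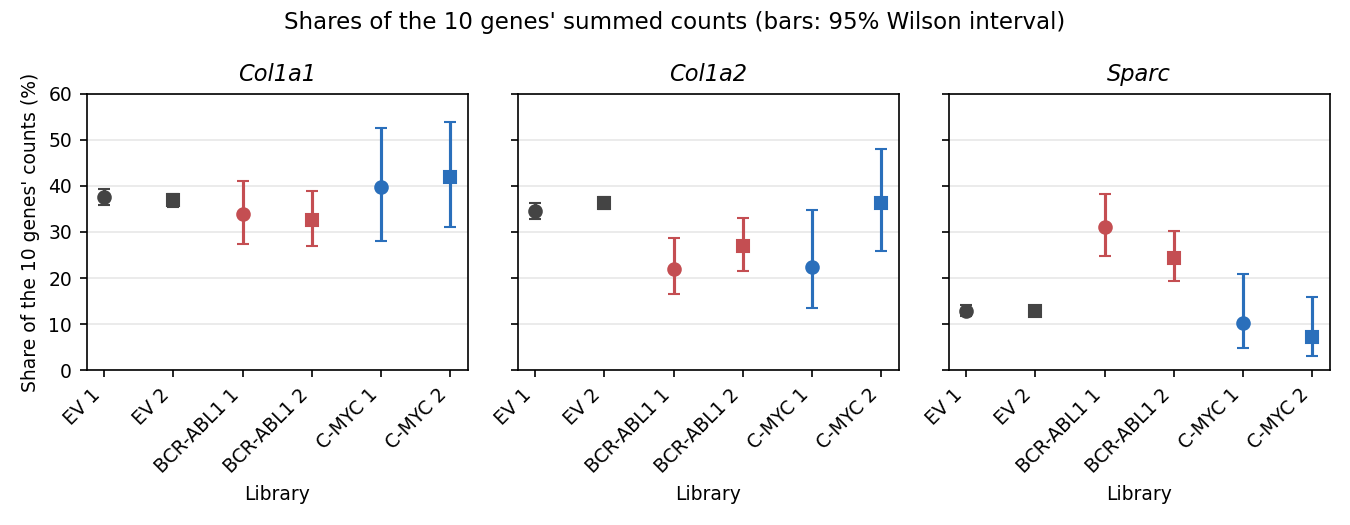
Share of the summed counts of the 10 genes (vertical axis, percent) taken by Col1a1, Col1a2 and Sparc in each library, with 95% Wilson intervals. Sparc is at 31.1% and 24.3% in BCR-ABL1 and at 7.25% to 12.9% in the other 4 libraries, while the Col1a1 intervals overlap in all 6.

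Within EV the genes differed between replicates in the same direction with the exception of Fbn1. The ratio of EV replicate 2 to EV replicate 1, in normalised counts, was 1.46 for Col1a1 (95% counting interval 1.36 to 1.58), 1.57 for Col1a2 (1.45 to 1.7), 1.49 for Sparc (1.31 to 1.7) and 1.4 for Col5a1 (1.17 to 1.67). Col3a1 (1.75), Col6a1 (1.98) and Cxcl12 (2.19, interval 1.05 to 4.9) had larger ratios, and Fbn1 was at 0.863 (0.66 to 1.13). Of these, Col6a1 and Cxcl12 lay above the central 90% of well counted genes (0.576 to 1.75), and Col3a1 at its upper edge. The calls against EV already weigh differences between conditions against the spread between replicates, so these ratios are no further support for them.

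The pattern of the 8 tested genes over the 6 libraries was similar, with Pearson correlations of log2(CPM + 0.5) between 0.9116 (Col3a1 and Sparc) and 0.9999 (Col3a1 and Col6a1). Outside EV Col3a1 was at most at 0.142 CPM and Col6a1 at 0.0474, under the added 0.5. Their 0.9999 therefore rests on the EV libraries, through which both passed the filter. The 6 points fall into 3 conditions, and the values are given as a description. The genes most like the mean pattern were Loxl2 (r = 0.9989), which encodes a collagen cross-linking oxidase, Fam53b (0.9977), Aebp1 (0.9971), Fbln2 (0.9965), which encodes the matrix protein fibulin-2, and Ms4a4c (0.9961). Of 11637 genes compared, 28 had an r of at least 0.99 and 334 of at least 0.95. Likeness did not mean equal size of change: Fam53b had 13547 and 16760 counts in EV and 7623 to 9816 in the other libraries, whereas Ms4a4c had 63 and 106 in EV and 0 to 4 elsewhere. Rab43 was most like Sparc (0.9981) and Sgsm1 most like Cxcl12 (0.996).

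The rest of the matrix was followed in 7 lists of 159 further genes, of which 86 were tested. Of these, 25 (29.1%, against 5.15% of all tested genes) passed the filter on low counts only through the EV libraries, so a lower level outside EV was built into part of the counts and medians that follow. Against EV, 54 of the 86 fell and 4 rose in BCR-ABL1, where 12.0% of all tested genes fell and 5.08% rose (median log2 fold change -2.13, against 0.00104 over all tested genes), and 58 fell and 4 rose in C-MYC, where 24.5% of all tested genes fell and 18.6% rose (-2.19, against -0.0759). Between the oncogenes 16 were higher and 10 lower in BCR-ABL1, against 11.9% and 11.5% of all tested genes (median 0.395, against 3.3e-05). The lists were written with earlier results of these data known, and their counts are descriptions. In summed level, the proteoglycan, elastic fibre, matricellular and protease lists were lower in every oncogene library than in EV. The sums of the other lists are given below.

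Among the other collagen chains, 8 of 17 tested genes fell in BCR-ABL1 and 12 in C-MYC. Summed over this list, levels were 99.0 and 138.3 CPM with EV, 82.22 and 103.0 with BCR-ABL1 and 28.81 and 35.55 with C-MYC. The higher BCR-ABL1 sum thus lay above the lower EV sum, whereas both C-MYC sums lay below EV. Col27a1 had the most counts of this list. Col5a2, the usual partner of Col5a1, had 174 and 365 counts with EV, 19 and 28 with BCR-ABL1 and 3 and 6 with C-MYC, and it fell in both (log2 -3.49 and -5.8, adjusted p = 0.00168 and 0.000308). Col6a2, Col5a3 and Col12a1 also fell in both. In BCR-ABL1, Col5a2 (log2 2.31, adjusted p = 0.0244), Col5a3 (2.33, 0.0286) and Col12a1 (2.3, 0.0495) were higher than in C-MYC. Col6a6, a further type VI chain, went the other way in BCR-ABL1: it had 27 and 25 counts with EV, 91 and 129 with BCR-ABL1 and 4 and 2 with C-MYC, a rise of 2.07 on the log2 scale against EV (SE 0.332, adjusted p = 0.00597) and a log2 fold change of -3.03 in C-MYC (SE 0.487, adjusted p = 0.00231).

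The list of collagen-modifying enzymes and chaperones covers genes that fold, export and cross-link collagen. Here 14 of 23 tested genes fell and 1 rose in BCR-ABL1, and 13 fell and 3 rose in C-MYC. The summed level of the list stayed between 821.2 and 942.2 CPM in all libraries. Lox, which cross-links collagen and elastin, had 201 and 311 counts with EV, 21 and 18 with BCR-ABL1 and 5 and 7 with C-MYC (log2 -3.68 and -5.33, adjusted p = 0.000685 and 0.000177). Serpinh1, the collagen chaperone HSP47, also fell in both (log2 -3.55 and -5.05, adjusted p = 0.00267 and 0.000506). The genes that rose, named after their values were seen, were Crtap in both conditions, and P4hb and P3h1 in C-MYC. P4hb, which encodes protein disulfide isomerase and serves the folding of many secreted proteins, had 8653 and 9493 counts in EV and 10763 and 10951 in C-MYC, a rise of 0.3 on the log2 scale (SE 0.0905, adjusted p = 0.0298).

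Of the small leucine-rich proteoglycans 5 were tested and 3 fell in each condition. Biglycan (Bgn), close in structure to decorin, had 250 and 436 counts with EV, 16 and 26 with BCR-ABL1 and 6 and 2 with C-MYC (log2 -4.01 and -6.32, adjusted p = 0.000928 and 0.000208). Kera and Epyc, of the same gene cluster as Lum and Dcn, were at 0 counts in all 6 libraries, so that Dcn alone of these 4 genes was detected. Among elastic fibre and microfibril genes, 7 of 10 fell in BCR-ABL1 and 6 in C-MYC, and Fbln1 (3 and 3 counts with EV, 17 and 14 with BCR-ABL1) rose in BCR-ABL1 (adjusted p = 0.0394; named after its values were seen). Fbln2 fell in both (log2 -3.85 and -5.69, adjusted p = 0.00117 and 0.000306).

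Of 11 tested matricellular and adhesive glycoprotein genes, 9 fell in each condition. Fn1, which encodes fibronectin, had 1435 and 2752 counts with EV, 174 and 194 with BCR-ABL1 and 49 and 63 with C-MYC, and like Sparc it was higher in BCR-ABL1 than in C-MYC (log2 1.68, SE 0.296, adjusted p = 0.00745). Thbs1, which encodes thrombospondin-1 and is also made by platelets and macrophages, had 10556 and 5473 counts with EV, 448 and 283 with BCR-ABL1 and 994 and 1252 with C-MYC, and it was lower in BCR-ABL1 than in C-MYC (log2 -1.63, SE 0.39, adjusted p = 0.0217). Its EV replicate with more counts was replicate 1, opposite to the type I collagens. Nov, which encodes the matricellular factor CCN3, rose in BCR-ABL1 (724 and 974 counts with EV, 2975 and 2574 with BCR-ABL1; log2 1.73, SE 0.212, adjusted p = 0.00198) and fell in C-MYC (324 and 229 counts; log2 -1.57, SE 0.22, adjusted p = 0.00136). Basement membrane genes fell in 3 of 9 cases in BCR-ABL1 and in 6 of 9 in C-MYC. Their summed level was 217.0 and 284.0 CPM with EV, 226.0 and 220.4 with BCR-ABL1 and 177.3 and 187.5 with C-MYC. The core protein of perlecan, Hspg2, fell in both (log2 -4.27 and -4.97, adjusted p = 0.00185 and 0.000563), whereas the nidogen genes Nid1 and Nid2 fell in C-MYC only (adjusted p = 0.00696 and 0.00297) and were higher in BCR-ABL1 than in C-MYC (log2 2.27 and 2.23, adjusted p = 0.016 and 0.00798).

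**Figure D4:**
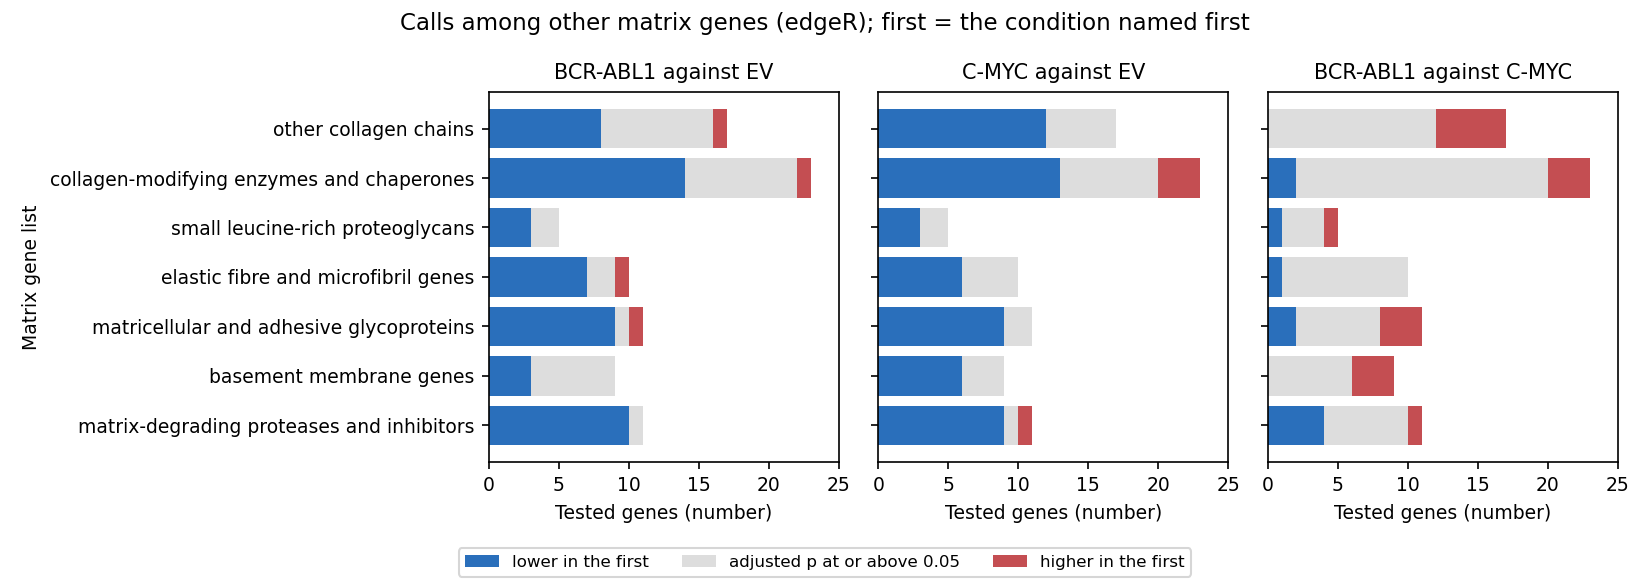
Number of tested genes (horizontal axis) in 7 lists of other matrix genes that were lower (blue), higher (red) or without a call (grey) in the condition named first, by edgeR at an adjusted p below 0.05. Against EV the calls are mostly lower, in 54 of 86 genes for BCR-ABL1 and 58 of 86 for C-MYC, and between the oncogenes 16 are higher and 10 lower in BCR-ABL1.

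Markers of several other cell types were also higher in EV, and their part in the values of the 10 genes was not tested. Beside the marker counts that follow, 12.0% of all tested genes fell in BCR-ABL1 and 24.5% in C-MYC. Some markers, among them Pdgfrb, Elane and Gzma, stayed under the filter minimum outside EV. A lower level outside EV was built into the calls of such markers. Among 17 mesenchymal stromal and fibroblast markers, 9 were tested, of which 5 fell in BCR-ABL1 and 8 in C-MYC. Their summed level was 1012 to 1246 CPM with EV, 1012 to 1109 with BCR-ABL1 and 645.5 to 776.4 with C-MYC, and most of it came from genes well counted in all 6 libraries, led by Vim (8036 to 14058 counts). Foxc1, a stromal transcription factor, had 6184 and 5687 counts with EV, 7546 and 7848 with BCR-ABL1 and 4210 and 3263 with C-MYC, and did not pass in BCR-ABL1 (log2 0.38, adjusted p = 0.149), nor did the surface proteins Eng (0.17, adjusted p = 0.587) and Nt5e (0.37, adjusted p = 0.239). Other stromal receptors and factors were near the limit of detection, and these are named after their values were seen. Pdgfrb had 16 and 24 counts in EV and 0 or 1 elsewhere, Prrx1 had 9 and 29 in EV and 0 to 3 elsewhere, and Pdgfra had 11 and 4 in EV and 0 or 1 elsewhere. Lepr was at 9 and 0 in EV and at 0 or 1 elsewhere, and Tcf21 was at 0 in all libraries.

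Pericyte and smooth muscle markers summed to 23.31 and 35.72 CPM in EV and to 5.4 to 7.307 in the oncogene conditions, and of 3 tested genes 3 fell in BCR-ABL1 and 2 in C-MYC. Acta2, the smooth muscle actin of pericytes and activated fibroblasts, had 241 and 480 counts with EV, 37 and 43 with BCR-ABL1 and 6 and 15 with C-MYC (log2 -3.14 and -5.03, adjusted p = 0.00208 and 0.00035). Acta2 was higher in BCR-ABL1 than in C-MYC (log2 1.88, SE 0.489, adjusted p = 0.0292), whereas Cnn1, which encodes the smooth muscle protein calponin, was lower, with 17 and 12 counts against 101 and 71 (log2 -2.59, SE 0.386, adjusted p = 0.00426). In the osteoblast and adipocyte list Bglap2, Dmp1 and Adipoq were at 0 in all libraries, 2 of 6 tested genes fell in each condition and Fabp4 rose in C-MYC, and the summed level was 366.0 to 458.9 CPM with EV, 326.7 to 331.8 with BCR-ABL1 and 432.3 to 483.7 with C-MYC. The endothelial list summed to 115.0 to 151.3 CPM with EV, 58.36 to 68.81 with BCR-ABL1 and 30.3 to 32.63 with C-MYC, with 2 of 5 tested genes lower in each, and Cldn5 was at 0 in all libraries. Alpl had the most counts of the osteoblast and adipocyte list, at 5660 to 7309 per library. Pecam1 had the most of the endothelial list and fell in both conditions. The endothelial sum in large part follows Pecam1. Alpl made up most of the osteoblast and adipocyte sum but not its differences, with means of 304, 305 and 295 CPM with EV, BCR-ABL1 and C-MYC. Lpl of that list varied more, at 75.5 ± 63.7, 19.5 ± 17.2 and 133 ± 79.6 CPM (SD).

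Markers of blood cells other than B cells were higher in EV too. Of 12 macrophage and monocyte markers 12 fell in BCR-ABL1 and 8 in C-MYC, with sums of 858.2 and 1300.0 CPM with EV, 144.4 and 183.6 with BCR-ABL1 and 263.6 and 461.6 with C-MYC. Here BCR-ABL1 was below C-MYC, the opposite order to that of Sparc and the type I collagens, and 8 of these markers were lower in BCR-ABL1 than in C-MYC. The higher EV library was replicate 2, the same order as for the type I collagens. All 11 tested neutrophil and mast cell markers fell in both, from 1136.0 and 400.8 CPM in EV to between 33.48 and 53.6, and EV replicate 1 was the higher library, again opposite to the type I collagens. T and NK cell markers fell in 8 of 9 cases in BCR-ABL1 and in 9 of 9 in C-MYC, with sums of 188.5 to 245.6 CPM with EV, 118.6 to 133.0 with BCR-ABL1 and 54.5 to 60.11 with C-MYC. Lck, the marker not called in BCR-ABL1, made up much of these sums. It had 2497 and 2229 counts with EV, 2627 and 2623 with BCR-ABL1 and 1221 and 1093 with C-MYC. Cd3e had 365 and 369 counts with EV, 17 and 27 with BCR-ABL1 and 16 and 12 with C-MYC. Of erythroid and megakaryocyte markers 3 of 4 fell in each, from 42.23 and 51.39 CPM in EV to between 8.224 and 13.47, and the globin genes Hba-a1, Hbb-bs and Hbb-b1 were at 0 throughout. EV replicate 2 was the higher EV library in this list, and EV replicate 1 in the T and NK cell list. The cause of these replicate orders was not tested.

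The sums of the B cell precursor markers lay closer together. They were 9403 and 8414 CPM with EV, 8617 and 7733 with BCR-ABL1 and 7221 and 5721 with C-MYC. Of 11 tested markers 2 fell in BCR-ABL1 and 9 in C-MYC, and the median log2 fold change was 0.104 and -0.773. Cd79a, for example, had a log2 fold change of 0.28 in BCR-ABL1 (SE 0.151, adjusted p = 0.252) and fell by 0.84 in C-MYC (SE 0.152, adjusted p = 0.00376).

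**Figure D5:**
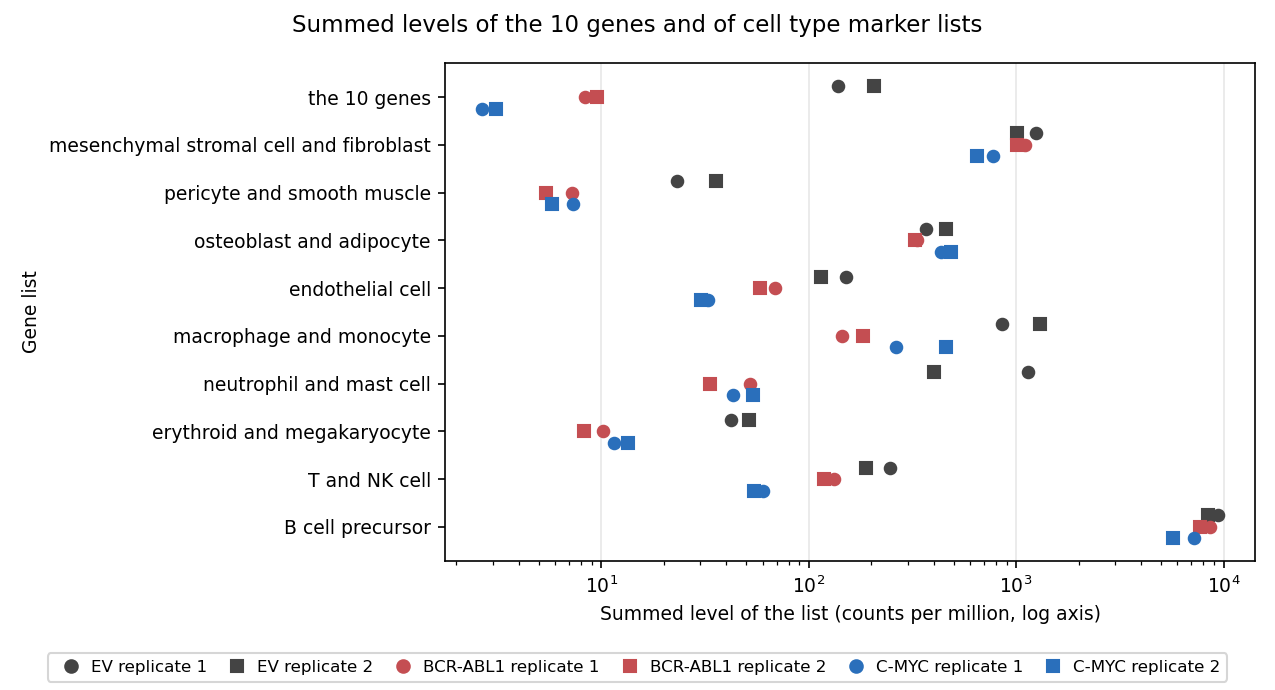
Summed level (horizontal axis, CPM, log axis) of the 10 genes and of 9 cell type marker lists in each library; circles are replicate 1 and squares replicate 2. The 10 genes fall from 138.2 and 206.4 CPM in EV to 8.388 and 9.554 with BCR-ABL1 and 2.665 and 3.097 with C-MYC, while the macrophage list is lowest in BCR-ABL1 and the B cell precursor list stays between 5721 and 9403 CPM.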

How the data were processed

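RNA of 6 libraries was analysed, and the 15 ChIP-seq samples of the series were not used here. The authors aligned poly(A) reads to GRCm38/mm10 with STAR 2.5.0 and deposited whole-number counts per gene symbol. The authors also deposited FPKM from StringTie 1.3.0. The counting program and its strand setting are not given in the sources used here.

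From the counts, edgeR 4.0.16 (R 4.3.3) tested 12786 of 24421 genes that passed filterByExpr, with TMM scaling, 1 model of all 6 libraries, the quasi-likelihood test and Benjamini-Hochberg adjustment over all tested genes. A gene was called at an adjusted p below 0.05. Fitted values are log2 fold changes. CPM are TMM-normalised. Intervals of ratios are exact conditional. Python 3.11.15 with scipy 1.17.1 was used, and DESeq2 1.42.0 and limma 3.58.1 for alternatives. On simulated counts for C-MYC against EV (12579 genes), the test recovered 75.6% of genes changed by 1 and 97.3% of those changed by 3 on the log2 scale. It also called 9 unchanged genes. The simulation gave all 6 libraries the same spread, set by mean level alone, and left out the wider spread of the EV replicates. Recovery in the real libraries was therefore not measured.

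The 10 genes, the lists and the tests were chosen with earlier results of these data known. From each list up to 4 genes were named per comparison, those with the largest fold change among called genes averaging 20 or more counts, in addition to a few genes set by name and the genes most alike in pattern. Depth was 20687092 to 24095955 counts, and edgeR's common biological coefficient of variation came to 0.151. The alternatives covered size factors, DESeq2, limma on log2 FPKM with a pseudocount of 1 or 0.1, filters, the libraries in the model, a term for the replicate number, and leaving out each library.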

Additional observations from a re-analysis of the deposited data

How the results depend on the processing

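Against EV, the direction of every tested gene of the 10 was the same under each alternative run, and all calls held wherever the gene was tested. Cxcl12 in BCR-ABL1 was not called but passed without EV replicate 1 and with the replicate term. The number of the 10 genes called was 7 to 8 (BCR-ABL1 against EV) and 8 to 8 (C-MYC against EV) over the fits that left out a library, and 1 to 3 between the oncogenes. With limma on log2(FPKM + 1) or log2(FPKM + 0.1), 5 genes were tested, and 5 were called in C-MYC against EV. Between the oncogenes limma called 0 with a pseudocount of 1, with or without a filter (adjusted p for Sparc 0.104 with it). With a pseudocount of 0.1 it called 2, Sparc (adjusted p = 0.00978) and Col1a1 (0.0411), and not Col1a2 (0.0779). The log2 difference of Col6a1 between the oncogenes turned to 0.000528 (pseudocount 1, with and without a filter) and 0.004776 (pseudocount 0.1) in limma, and ranged from -2.36 to 2.32 over the fits that left out a library, as did that of Col3a1 from -0.42 to 0.303. Both rest on 5 counts or fewer in each condition.

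The other matrix genes called were 38 (limma, pseudocount 1) and 28 to 60 (leaving out a library) in BCR-ABL1 against EV, 48 to 68 (leaving out a library) in C-MYC against EV, and between the oncogenes 14, 16 and 11 in limma (pseudocount 1, 0.1, and 1 without a filter) and 9 to 38 leaving out a library. All genes called were 1435 and 1425 (limma, pseudocount 1, with and without a filter) and 665 to 2729 (leaving out a library) in BCR-ABL1 against EV, 3329 to 6077 in C-MYC against EV, and 4538 (only the 4 libraries compared), 1412 (limma without a filter) and 618 to 4519 (leaving out a library) between the oncogenes. The cause of these shifts was not tested.

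The replicate numbers are shared between conditions, but the labels do not tie equal numbers to 1 animal or day, and there are only 2 numbers. Differences between replicates correlated by 0.334 (EV and BCR-ABL1), 0.285 (EV and C-MYC) and 0.277 (BCR-ABL1 and C-MYC) over genes. With a replicate block, 8, 8 and 3 of the 10 genes were called in the 3 comparisons, and it changed no other call among them than that of Cxcl12.

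Depth limits Lum, Dcn, Col6a1, Col3a1 and Cxcl12, whose counts outside EV were 0 to 5. Fbn1, Col5a1 and Sparc had 2 to 10 counts in the C-MYC libraries.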

Other observations

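Receptors that bind the matrix, and factors of the marrow niche besides CXCL12, were not described above. Of 16 tested collagen and matrix receptors 9 fell in BCR-ABL1, and 8 fell and 1 rose in C-MYC (median log2 fold change -1.12 and -0.513). Of all tested genes, 12.0% fell in BCR-ABL1, and 24.5% fell and 18.6% rose in C-MYC. Some genes of the receptor and niche lists, among them Itga1 and Mrc2, stayed under the filter minimum outside EV. A lower level outside EV was built into their calls. Itga1, which pairs with Itgb1 in a collagen receptor, had 98 and 95 counts with EV, 1 and 6 with BCR-ABL1 and 0 and 7 with C-MYC, and fell in both (adjusted p = 0.00699 and 0.00279 by edgeR). Mrc2, an endocytic collagen receptor of mesenchymal cells, had 38 and 65 counts in EV and 3 to 9 elsewhere and also fell in both. Itga4, which pairs in the receptor for VCAM1 and fibronectin and is used by B cell precursors, was at 4939 to 7994 counts in all 6 libraries (log2 -0.13 in BCR-ABL1, adjusted p = 0.496; -0.51 in C-MYC, adjusted p = 0.00954). Itgb1 was the gene that rose in C-MYC (log2 0.31, SE 0.0962, adjusted p = 0.0318; named after its values were seen). Of 10 tested genes of the CXCL12 axis and niche, 4 fell in BCR-ABL1 and 5 in C-MYC. Vcam1, the stromal and macrophage ligand of that receptor, had 131 and 158 counts with EV, 8 and 7 with BCR-ABL1 and 4 and 15 with C-MYC (adjusted p = 0.00176 and 0.00084). The cytokine gene Flt3l fell in both and was higher in BCR-ABL1 than in C-MYC (log2 1.37, SE 0.259, adjusted p = 0.00936), as was Csf1 (0.98, SE 0.245, adjusted p = 0.0253).

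Proteases that degrade matrix, and their inhibitors, fell in 10 of 11 tested cases in BCR-ABL1 and in 9 in C-MYC. The gelatinase gene Mmp2, a product of mesenchymal cells, had 34 and 82 counts with EV, 5 and 8 with BCR-ABL1 and 0 and 3 with C-MYC, and the inhibitor gene Timp1 had 89 and 164, 11 and 8, and 3 and 5. In both, EV replicate 2 was higher. Mmp8 and Mmp9, which neutrophils store, had more counts in EV replicate 1 (1675 and 825, and 1356 and 679). The collagen-degrading protease gene Ctsk, known from osteoclasts, rose in C-MYC: it had 17 and 59 counts with EV, 9 and 27 with BCR-ABL1 and 480 and 716 with C-MYC (log2 4.03, SE 0.512, adjusted p = 0.000909 against EV).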
